A study of Mus musculus with 6 samples.

Results

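The mRNAs of neutrophil granule proteins and calgranulins were followed in alveolar type II cells of Stat3Δ/Δ mice and of littermate controls. The genes were S100a8, S100a9, Ngp, Camp, Ltf, Il1r2, Retnlg and Csf3r, and every probe set annotated to one of them alone was taken. Of these 8 genes 7 had such a probe set, 1 each, out of 45037 probe sets and 18193 genes on the array, and Retnlg is named only. The Stat3Δ/Δ mice were triple transgenic, carrying SP-C-rtTA and (tetO)7CMV-Cre together with Stat3flx/flx. Doxycycline, given to the dams in food before and after birth, turns on the Cre and removes an exon of Stat3 in the respiratory epithelium. The SP-C promoter drives the transactivator, so the deletion was directed at epithelium and not at blood cells. The sources differ on the controls. Their titles call them wild type, another label gives SP-C-rtTA with (tetO)7CMV-Cre and a further one names the triple line for all samples, whereas the methods of the study describe double-transgenic littermates with 1 of these transgenes and Stat3flx/flx, and the dams of these litters received doxycycline. All mice were 8 weeks old and sex matched, cells were isolated with collagenase and differential plating, and the cells of 3 mice were pooled for each array, with 3 Stat3Δ/Δ pools and 3 control pools. The isolates are described as mainly type II cells with alveolar macrophages as the main other cell, and their purity and yield as similar in both genotypes. Neutrophils were not sorted, and in such bulk RNA a difference in the number of cells of a type and a difference in RNA per cell cannot be told apart.

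Neutrophils are short-lived phagocytes that the lung recruits from the blood. During their development in the bone marrow they fill granules with antimicrobial proteins in successive waves, and the mRNAs of most granule proteins are switched off before the mature cell enters the blood, while mRNAs of calgranulins and of surface receptors persist in the mature cell. S100a8 and S100a9 encode the calgranulins, calcium-binding proteins that pair as calprotectin, make up a large share of neutrophil cytosol, bind zinc and manganese and signal as danger molecules. Ngp (neutrophilic granule protein), Camp (the cathelicidin antimicrobial peptide) and Ltf (lactotransferrin, which binds iron) are proteins of the secondary granules. Il1r2 is a decoy receptor that captures interleukin-1 without signaling, and Csf3r is the receptor for granulocyte colony stimulating factor. Ltf is also secreted by airway epithelium and glands, and calgranulins can be made by monocytes and by stressed epithelium.

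The promoters of 8 of the 8 genes were matched by symbol in RefSeq (build GRCm38.p6), as windows of 300 bases, 250 before the transcription start and 50 after it. Those of both calgranulins, of Il1r2 and of Ltf are shown because the calgranulins differed most between the groups, because Il1r2 alone carried the STAT letters, and because Ltf had its lower mean in Stat3Δ/Δ cells. Capitals mark matches, on either strand, to the STAT letters TTCNNNGAA, the C/EBP letters TTGCNNAA, the PU.1 letters GAGGAA and the TATA box letters TATAAA.
S100a8 promoter, chr3:90668821-90669120 (+ strand): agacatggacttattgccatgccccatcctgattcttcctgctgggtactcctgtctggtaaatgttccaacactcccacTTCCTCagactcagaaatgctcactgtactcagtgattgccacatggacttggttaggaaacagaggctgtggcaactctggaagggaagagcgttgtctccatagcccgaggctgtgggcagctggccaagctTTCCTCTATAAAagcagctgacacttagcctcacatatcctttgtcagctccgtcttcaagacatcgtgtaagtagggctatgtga
S100a9 promoter, chr3:90695672-90695971 (- strand): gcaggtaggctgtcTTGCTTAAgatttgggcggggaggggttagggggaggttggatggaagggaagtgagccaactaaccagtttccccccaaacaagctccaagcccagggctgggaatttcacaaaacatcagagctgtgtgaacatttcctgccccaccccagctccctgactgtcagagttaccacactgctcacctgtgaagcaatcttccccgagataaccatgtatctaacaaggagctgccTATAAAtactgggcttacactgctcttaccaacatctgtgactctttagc
Il1r2 promoter, chr1:40085843-40086142 (+ strand): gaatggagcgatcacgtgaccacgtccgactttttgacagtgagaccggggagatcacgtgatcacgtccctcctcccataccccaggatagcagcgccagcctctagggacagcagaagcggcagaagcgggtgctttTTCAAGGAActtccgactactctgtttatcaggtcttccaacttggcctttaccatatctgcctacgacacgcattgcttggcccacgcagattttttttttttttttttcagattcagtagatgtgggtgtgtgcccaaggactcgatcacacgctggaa
Ltf promoter, chr9:111019042-111019341 (+ strand): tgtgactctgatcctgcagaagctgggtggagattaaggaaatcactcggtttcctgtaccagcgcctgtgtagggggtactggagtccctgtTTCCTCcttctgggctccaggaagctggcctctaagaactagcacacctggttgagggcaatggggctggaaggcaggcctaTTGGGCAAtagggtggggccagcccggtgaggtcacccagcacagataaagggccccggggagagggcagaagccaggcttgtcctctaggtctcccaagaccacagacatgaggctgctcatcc
The STAT letters were found in the window of Il1r2 and in none of the other 7 windows, against 8.47% of 27025 promoters of the same length. PU.1 letters were found in S100a8 (2 matches), Ltf and Csf3r, against 28.3% of all promoters, and the second match in S100a8 runs directly into the TATA box letters. The C/EBP letters were found in S100a9, Ngp (2 matches), Ltf and Retnlg, against 10.8%, and the TATA box letters in both calgranulins, against 14.2%. Relative to the annotated transcription start, the TATA box letters began at -30 in S100a8 but at 0 in S100a9. C/EBP factors and PU.1 drive granulocyte genes, and a match of letters is a description of these windows, not a binding site.

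S100a8 and S100a9, which lie near each other on chromosome 3, gave the widest separation between the groups. S100a8 had signals of 11124, 12892 and 9078 in Stat3Δ/Δ pools 1 to 3, against 1814, 3885 and 5402 in control pools 1 to 3. Signals are the intensities deposited by the authors, in arbitrary units, scaled alike on every array. Each Stat3Δ/Δ pool lay above each control pool, and the control pools spread more widely than the Stat3Δ/Δ pools. On the log2 scale, with 69.9 signal units added to every value and the arrays quantile normalized, S100a8 averaged 13.46 ± 0.28 in Stat3Δ/Δ cells and 11.78 ± 0.75 in control cells (SD, n = 3 pools each). Its log2 fold change was 1.68 (standard error 0.39), a 3.21-fold difference, with an unadjusted p = 0.0026 and an adjusted p = 0.456 from limma, adjusted over the whole array. The S100a8 probe set is of a type whose probes can match more than 1 transcript.

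S100a9 had signals of 12009, 10468 and 7394 in Stat3Δ/Δ pools 1 to 3, against 1029.6, 3738 and 4459 in control pools 1 to 3. As for its partner, the groups did not overlap, Stat3Δ/Δ pool 3 was the lowest of its group and control pool 1 was by far the lowest of the controls. The log2 signal of S100a9 was 13.30 ± 0.39 in Stat3Δ/Δ cells and 11.42 ± 1.04 in control cells (SD, n = 3 pools each). The log2 fold change was 1.88 (standard error 0.50), or 3.69-fold, with an unadjusted p = 0.00531 and an adjusted p = 0.469 from limma. Among the log2 fold changes of all probe sets, those of S100a8 and S100a9 stood at percentiles 99.8 and 99.91. Without control pool 1 the log2 fold changes were 1.25 for S100a8 and 1.27 for S100a9.

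**Figure D1:**
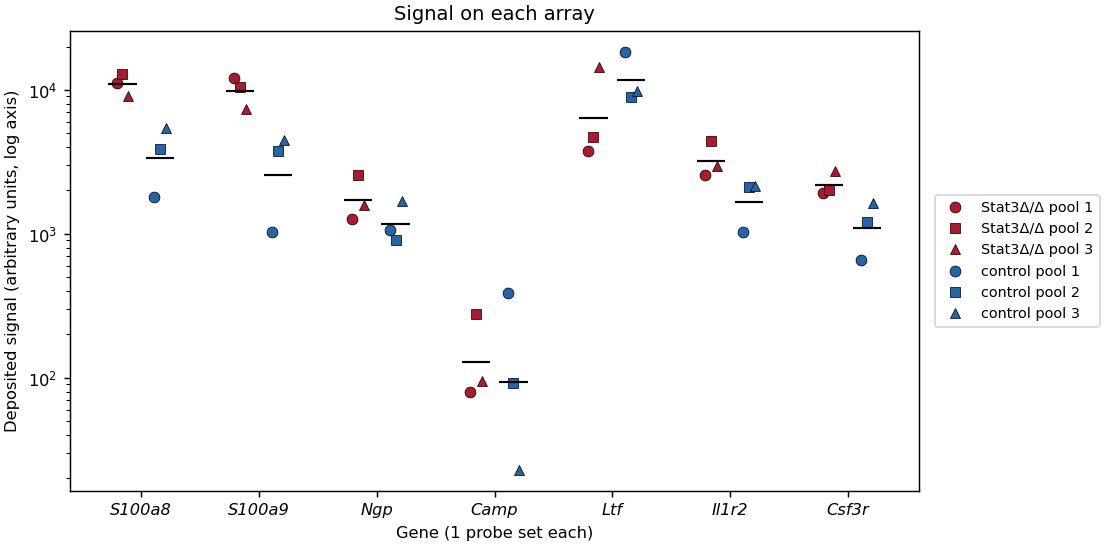
Deposited signal (arbitrary units, log axis) of 7 genes on each array, with Stat3Δ/Δ pools in red left of control pools in blue, a symbol for each pool number and a bar at the geometric mean of each group. S100a8, S100a9, Il1r2 and Csf3r have no overlap between the groups, Ngp and Ltf overlap, and Camp lies between 22.9 and 388.4 on all arrays.

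Both receptors of the group also lay higher on every Stat3Δ/Δ array. Csf3r, whose ligand drives neutrophil production and survival, had signals of 1920.1, 2023 and 2734 in Stat3Δ/Δ pools 1 to 3, against 659, 1210.3 and 1635 in control pools 1 to 3. The highest control pool lay just below the lowest Stat3Δ/Δ pool, with a gap of 0.24 on the log2 scale. The log2 signal of Csf3r was 11.14 ± 0.31 in Stat3Δ/Δ cells and 10.23 ± 0.50 in control cells (SD, n = 3 pools each), a log2 fold change of 0.91 or 1.88-fold, with a standard error of 0.33 and a limma adjusted p = 0.533.

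Il1r2, the interleukin-1 decoy, had signals of 2549.9, 4435 and 2951 in Stat3Δ/Δ pools 1 to 3, against 1022, 2104 and 2133 in control pools 1 to 3. Stat3Δ/Δ pool 2 was the highest and control pool 1 the lowest, and the gap between the groups was 0.25 on the log2 scale. Its log2 signal was 11.69 ± 0.42 in Stat3Δ/Δ cells and 10.79 ± 0.50 in control cells (SD, n = 3 pools each), and the difference was 0.90, or 1.86-fold, with a standard error of 0.35 and a limma adjusted p = 0.556. With arrays centred on their medians in place of quantile normalization the unadjusted limma p was 0.0534, against 0.0313 with it, so that Il1r2 then missed the threshold of 0.05.

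The secondary granule proteins Ngp, Camp and Ltf, whose genes all lie on chromosome 9, had no direction in common, and none of them passed p and fold. Ngp, a relative of the cathelicidins, had signals of 1278, 2556 and 1583 in Stat3Δ/Δ pools 1 to 3, against 1059 and 909 in control pools 1 and 2 and 1678 in control pool 3. The groups overlapped, since the signal of control pool 3 lay above those of Stat3Δ/Δ pools 1 and 3. The log2 signal of Ngp was 10.80 ± 0.50 in Stat3Δ/Δ cells and 10.32 ± 0.38 in control cells (SD, n = 3 pools each), and the log2 fold change was 0.48, with a standard error of 0.34 and a limma adjusted p = 0.733. Of 9 pairs of a Stat3Δ/Δ and a control pool, 8 had the higher normalized signal in the Stat3Δ/Δ pool.

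Camp was dim on all arrays, with signals of 79.4, 276.5 and 95.3 in Stat3Δ/Δ pools 1 to 3, against 388.4, 92.1 and 22.9 in control pools 1 to 3. Its mean stood at percentile 30.4 of all probe sets, and the control pools covered a wider range than the Stat3Δ/Δ pools and enclosed it. The log2 signal was 7.61 ± 0.70 in Stat3Δ/Δ cells and 7.67 ± 1.27 in control cells (SD, n = 3 pools each), and its log2 fold change of -0.0603 (SE 0.63, limma adjusted p = 0.989) was far smaller than this spread. Its sign turned with the scaling, to 0.10 with no normalization between arrays.

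Ltf was bright and lay lower in 2 of the 3 Stat3Δ/Δ pools. Its signals were 3733, 4701 and 14484 in Stat3Δ/Δ pools 1 to 3, against 18300 in control pool 1 and 8913 and 9890 in control pools 2 and 3. Stat3Δ/Δ pools 1 and 2 lay below every control pool, while Stat3Δ/Δ pool 3 lay inside the control range. The log2 signal of Ltf was 12.62 ± 1.02 in Stat3Δ/Δ cells and 13.50 ± 0.48 in control cells (SD, n = 3 pools each), and the log2 fold change was -0.87, with a standard error of 0.51 and a limma adjusted p = 0.689. Without Stat3Δ/Δ pool 3 the log2 fold change of Ltf was -1.44 (unadjusted p = 0.00525 and adjusted p = 0.452 from limma).

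**Figure D2:**
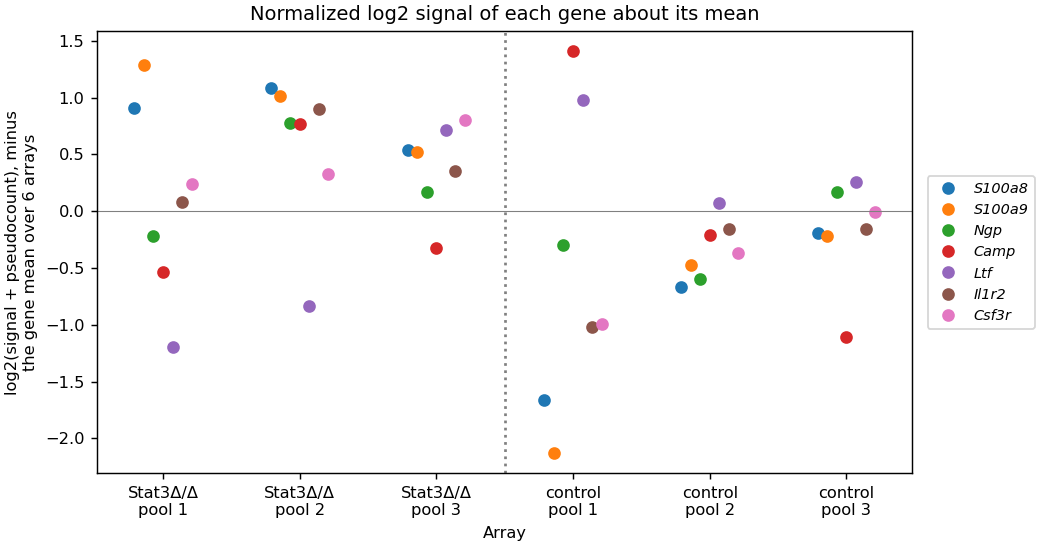
Normalized log2 signal of each gene on each array, less the mean of that gene over the 6 arrays, with Stat3Δ/Δ pools left of the dotted line and control pools right of it. Calgranulins and receptors lie above their means in the Stat3Δ/Δ pools and below them in the control pools, whereas Ltf has its lowest values in Stat3Δ/Δ pools 1 and 2 and Camp its highest in control pool 1.

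Over the 7 genes, the median log2 fold change was 0.90 and 5 values lay above 0, against a median of -0.0169 over all probe sets. The methods of the study used p of 0.05 or less, an FDR of 10% or less and a change of 1.5-fold or more, and waived the FDR for mRNAs that changed alike in several probe sets, which cannot apply to genes with 1 probe set each. By the full thresholds 0 of the 7 genes was called by limma and 0 by the methods' t-test. Of all 45037 probe sets, limma called 0.00222% and the other test 0. The methods name that test but also the affylmGUI package. The form used in the study may thus differ from the unmoderated one run here on the deposited signals. Without the FDR, S100a8, S100a9, Il1r2 and Csf3r passed p and fold by limma in the higher direction, 4 of 7 against 4.14% of all probe sets. In the lower direction 0 of 7 passed, against 4.22%. The same 4 genes had all 3 Stat3Δ/Δ values above the highest control value, which 5.99% of all probe sets did, and 0 of 7 had them all below the lowest control value, against 7.66%. The genes were chosen with earlier results of these arrays known, so these counts describe them and do not test the group.

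The titles of the samples carry a leading number, and the sources used here do not say what it stands for. Stat3Δ/Δ pools 1 and 2 have this number in common with control pool 3. Stat3Δ/Δ pool 3 has a number of its own, and control pools 1 and 2 have a further one. Within the 3 arrays that share it, the log2 fold change was 1.18 for S100a8, 1.37 for S100a9, 0.66 for Il1r2 and 0.28 for Csf3r, and none of the 4 genes passed p and fold there (unadjusted p = 0.0608, 0.108, 0.282 and 0.508 in that order, limma with the number as a fixed block). Ngp gave 0.12 and Ltf -1.28 within the same arrays. Stat3Δ/Δ pool 3 less control pools 1 and 2, which carry different numbers, gave 1.70 for S100a8, 1.82 for S100a9, 0.94 for Il1r2, 1.49 for Csf3r and 0.20 for Ltf. All 4 genes thus kept their direction in both comparisons, with the smaller difference inside the shared number, and Ltf did not.

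**Figure D3:**
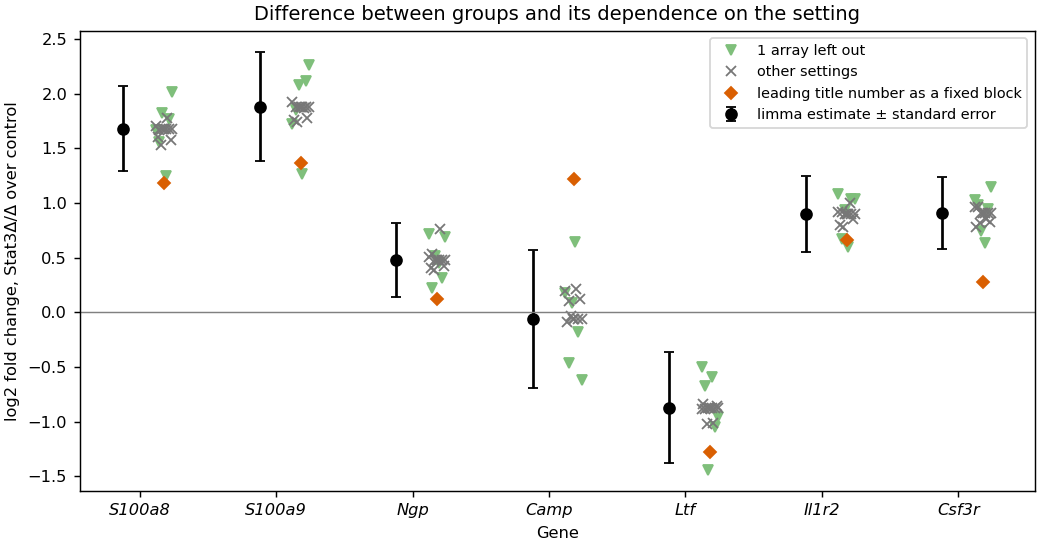
Log2 fold change of Stat3Δ/Δ over control cells for each gene, with the limma estimate and its standard error in black, estimates with 1 pool left out as green triangles, those of other settings as grey crosses and that with the title number as a fixed block as an orange diamond. S100a8 and S100a9 stay above 1 in every setting, Il1r2, Csf3r and Ngp stay above 0, Ltf stays below 0, and Camp lies on both sides of 0, from -0.62 to 1.22.

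Other genes of neutrophils were taken from lists, each gene by its brightest probe set, and none of them was called, against 0.0055% of all 18193 genes taken that way. Of these, 2.15% passed p and fold without the FDR in the higher direction and 5.54% in the lower, and the median log2 fold change was -0.085. In the list of neutrophil surface receptors, which also holds the gene of the intracellular sensor pyrin (Mefv, 0.56), the median over 12 measured genes was 0.77, 11 lay above 0 and 5 passed p and fold in the higher direction, 0 in the lower. Clec4e, a lectin that senses damaged cells and fungi, had signals of 14309, 11169.6 and 5827 in Stat3Δ/Δ pools 1 to 3, against 5071, 6089 and 3629.8 in control pools 1 to 3, and a log2 fold change of 1.05. Its neighbour among the lectins, Clec4d, gave 0.90, whereas the immunoglobulin receptor Fcgr4 gave 0.0142 and Trem3 0.13. These receptors are shared with monocytes and macrophages. Cxcr2, the chemokine receptor that defines circulating neutrophils, was dim, with signals from 142.4 to 291.1 in Stat3Δ/Δ pools and from 62.8 to 512.0 in control pools.

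Of 12 other proteins of secondary and gelatinase granules, 10 lay above 0 with a median of 0.38, and 2 passed p and fold in the higher direction. Itgam, the integrin chain CD11b, had signals of 917, 998 and 768 in Stat3Δ/Δ pools 1 to 3, against 264, 172 and 483 in control pools 1 to 3, with no overlap and a log2 fold change of 1.34. Mmp8, neutrophil collagenase, had 1004.5, 1256 and 887 in Stat3Δ/Δ pools 1 to 3, against 423, 511 and 740.1 in control pools 1 to 3, and gave 0.76. Haptoglobin, Hp, which lung epithelium also makes, lay on the other side at -0.53, and Pglyrp1, which binds bacterial wall, gave -0.32. In this list 2 of 12 genes, Itgam and Mmp8, lay above every control array, against 4.23% of all genes. Hp lay below every control array, 1 of 12 against 10.2%.

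The primary granule genes, which are transcribed in promyelocytes, gave little signal. Of the 8 measured, 6 were below the median brightness of all probe sets and none passed p and fold. Mpo, myeloperoxidase, had signals from 144.2 to 246.3 in Stat3Δ/Δ pools and from 13.9 to 236.7 in control pools, and its log2 fold change was 0.62. Neutrophil elastase, Elane, had 79.1 to 267.8 in Stat3Δ/Δ pools and 156.2 to 367 in control pools, and gave -0.35. The groups overlapped for Mpo and Elane. Ms4a3, also dim, had signals of 371, 355 and 361 in Stat3Δ/Δ pools 1 to 3, against 234, 125 and 257 in control pools 1 to 3. It gave 0.55 and was the 1 gene of these 8 with no overlap, while Gusb gave -0.12. Of all genes 4.23% lay above every control array and 10.2% below, so 1 of 8 does not set this list apart. Of the 2 measured stefin genes, Stfa2l1 gave 0.49 and Stfa3 -0.17.

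The 5 measured subunits of the phagocyte NADPH oxidase, which makes superoxide, all lay above 0, with a median of 0.58 and none past p and fold. Ncf1 gave 0.66, Rac2 0.60, Ncf4 0.54 and Cyba 0.32. Among 12 genes of the interleukin-1 receptor pathway, on which the decoy Il1r2 acts, the median was 0.42, 9 lay above 0 and 3 passed p and fold in the higher direction. Il1b, the cytokine itself, had signals of 21932, 25566 and 13373 in Stat3Δ/Δ pools 1 to 3, against 10199, 10528 and 8904 in control pools 1 to 3, with no overlap, and gave 1.05. Il1r1, the signaling receptor, gave 0.96 and also had no overlap between the groups, while Irak1, a kinase downstream of it, gave -0.27 and Il1rl2 -0.31.

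Cytokines that attract neutrophils or drive their growth had a median of 0.26 over 15 genes, of which 12 lay above 0 and Il1b alone passed p and fold. Ccl3, a chemokine of inflammation, gave 0.61, and the growth factors Csf1 and Csf2 gave -0.0605 and -0.19. Csf3, the ligand of Csf3r, was read by a dim probe set and gave -0.15, with a standard error of 0.63. Of 7 granulocyte transcription factors none passed p and fold, with Spi1, which encodes PU.1, at 0.41, Runx1 at 0.34, Cebpa at -0.27 and Cebpd at -0.50. Cebpd lay below every control array on all Stat3Δ/Δ arrays, 1 of 7 against 10.2% of all genes, and 0 of 7 lay above. Cebpa is also on the list of type II cell markers.

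Receptors of the calgranulins had a median of 0.0609 over 5 genes, with Cd36 at 0.57, Cd14 at 0.51, Ly96 at 0.0367 and Ager, which type I cells express strongly, at -0.19. The other S100 genes lay on both sides of 0, unlike S100a8 and S100a9. The median of their list was -0.0911 over 12 genes, of which 6 lay above 0. The list also holds S100pbp, whose product binds an S100 protein and which gave 0.0249, and S100a4, a member made by leukocytes and fibroblasts, was the 1 past p and fold. S100a4 had signals of 4272, 6077 and 3338 in Stat3Δ/Δ pools 1 to 3, against 1331, 1992 and 2791 in control pools 1 to 3, and a log2 fold change of 1.13. S100a14 gave 0.19, S100a6 -0.29 and S100a1 -0.31. S100a4 lay above every control array and S100a6 below, 1 of 12 each, against 4.23% and 10.2% of all genes. Among the relatives of Retnlg, Retnla gave -0.27, Retn 0.20 and Retnlb -0.43, with the last 2 dim.

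**Figure D4:**
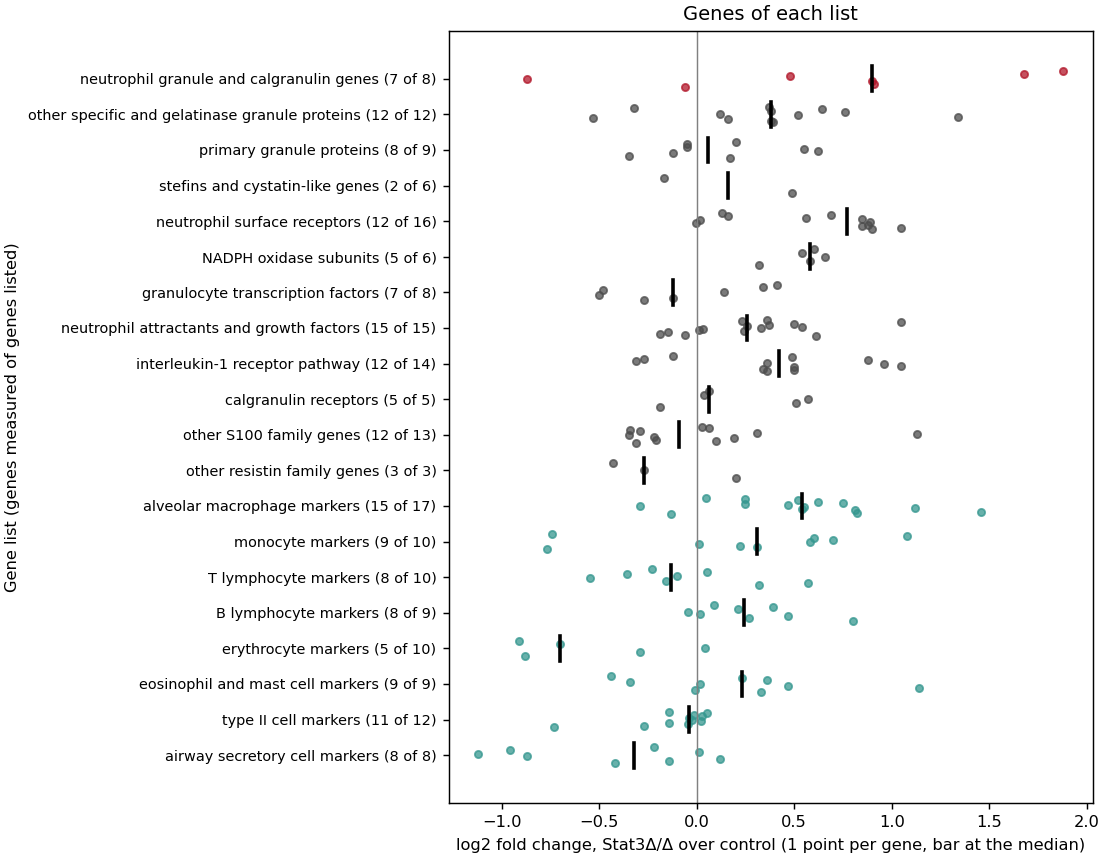
Log2 fold change of Stat3Δ/Δ over control cells for each gene of each list, 1 point per gene by its brightest probe set, with a bar at the median of the list. Neutrophil genes are in red, their pathway lists in grey and marker lists of other cells in green, and the medians of surface receptors, oxidase subunits and alveolar macrophage markers all lie above 0.5.

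The isolates carried mRNA of other leukocytes, and most markers of alveolar macrophages lay on the same side as the calgranulins. Of 15 measured macrophage markers 13 lay above 0, with a median of 0.54, 5 passed p and fold in the higher direction and 7 had all their Stat3Δ/Δ values above the highest control value, against 4.23% of all genes. None had them all below the lowest control value, against 10.2%. Their summed signal ran from 169315 to 229251 in Stat3Δ/Δ pools and from 126782 to 157858 in control pools, with no overlap. All 15 were brighter than the median probe set. Chil3, the brightest, made up a large part of these sums. It had signals of 71289, 82598 and 84770 in Stat3Δ/Δ pools 1 to 3, against 69859, 64381 and 46375 in control pools 1 to 3. With this gene left out the sums of the groups overlapped, so their lack of overlap depends on it. Ctsk gave 1.12 and Cd200r4 1.46, while Siglecf gave 0.0451, Abcg1 -0.13 and Fabp1 -0.29. Monocyte markers had a median of 0.31 over 9 genes, with summed signals from 33997 to 52963 in Stat3Δ/Δ pools and from 26371 to 38298 in control pools. The monocyte median was 0.534 when Stat3Δ/Δ pool 1 was omitted, 0.036 when Stat3Δ/Δ pool 2 was and 0.109 when control pool 1 was. Plac8 gave 1.08 and Ms4a4c 0.70, whereas F13a1 gave 0.00905 and Ccr2, the receptor that marks inflammatory monocytes, gave -0.77. Plac8 passed p and fold in the higher direction and Ccr2 in the lower, 1 of 9 each, against 2.15% and 5.54% of all genes. All Stat3Δ/Δ values of Ccr2 lay below the lowest control value. The part of macrophages and monocytes in the values of S100a8, S100a9, Il1r2 and Csf3r was not tested.

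The summed signals of lymphocyte and erythrocyte markers overlapped between the groups, and those of eosinophil and mast cell markers did not. The 8 measured T lymphocyte markers had a median of -0.13, with summed signals from 8070 to 11424 in Stat3Δ/Δ pools and from 3952 to 30502 in control pools, and the 8 B lymphocyte markers had a median of 0.24 (0.581 without Stat3Δ/Δ pool 1), with 6734 to 10169 in Stat3Δ/Δ pools and 5932 to 7905 in control pools. Erythrocyte markers, a sign of blood in the isolate, had a median of -0.70 over 5 genes, which was -0.021 when Stat3Δ/Δ pool 1 was omitted, -1.297 for Stat3Δ/Δ pool 2, -0.144 for control pool 2 and -1.087 for control pool 3. Their sums ran from 6037 to 41386 in Stat3Δ/Δ pools and from 19122 to 61092 in control pools. Of 9 eosinophil and mast cell markers 8 were below the median brightness, and the median was 0.23. Their sums were 1978 to 2216 in Stat3Δ/Δ pools and 1466 to 1754 in control pools. Taken singly, 0 of the 9 had all Stat3Δ/Δ values above the highest control value, against 4.23% of all genes. Cma1, the brightest, gave -0.0106. Cpa3, a dim one, gave 1.14 and was the 1 past p and fold, in the higher direction. Type II cell markers, which check the label of the isolates, were bright, with a median of -0.0379 over 11 genes, which was -0.142 with no normalization between arrays and -0.283 with arrays centred on their medians. Of these genes 3 lay above 0 and Abca3, a lipid transporter of lamellar bodies, passed p and fold in the lower direction. Sftpb, Sftpd and Abca3 gave 0.0273, 0.0534 and -0.73.

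Ltf lay on the side of the airway secretory cell markers, a list that includes it. Their median was -0.32 over 8 genes, 2 lay above 0, and the summed signal ran from 366597 to 520923 in Stat3Δ/Δ pools and from 466769 to 586591 in control pools. Muc5b, a gel-forming mucin, had signals of 1424, 1151 and 2786 in Stat3Δ/Δ pools 1 to 3, against 4306, 3589.6 and 3186 in control pools 1 to 3, and gave -1.12. Scgb3a1, a secretoglobin, had 27281, 18993 and 47411 in Stat3Δ/Δ pools 1 to 3, against 96504, 65634 and 32723 in control pools 1 to 3, and gave -0.96. For both, as for Ltf, Stat3Δ/Δ pool 3 was the highest of its group. Lcn2, a granule protein that airway epithelium also makes, gave 0.12 and Scgb1a1, the main club cell protein, 0.0121. The part of airway cells in the value of Ltf was not tested.

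The 10 genes whose signals over the 6 arrays were nearest to the mean profile of the 7 genes, by the root mean square difference of log2 values centred for each gene, came from 11336 candidates of at least median brightness. They were Ncf1 (0.113), Mmp8 (0.126), Ncf4 (0.127), Themis2 (0.14), Wdfy4 (0.143), Serinc5 (0.146), Hvcn1 (0.149), Arih1 (0.151), Taf12 (0.154) and Gbp2 (0.154). Ncf1 and Ncf4 encode oxidase subunits, Hvcn1 the proton channel that serves the oxidase and Mmp8 a granule collagenase. Themis2, Wdfy4, Serinc5, Hvcn1, Arih1, Taf12 and Gbp2 are on none of the lists used here. The mean profile itself covered 1.11 on the log2 scale, from -0.53 in control pool 1 to 0.58 in Stat3Δ/Δ pool 2. Il1r2 (0.252), Ngp (0.265) and Csf3r (0.289) were nearest to it among the 7 genes, and Ltf (1.03) and Camp (0.963) farthest. S100a8 (0.624) and S100a9 (0.841) lay between. The 10 genes from outside were all nearer to the mean profile than any of the 7. As they were picked as the nearest of 11336 candidates, this order follows largely from the choice.

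Of the 4 probe sets of Stat3, the targeted gene, 2 had all Stat3Δ/Δ values below the lowest control value, with log2 fold changes of -0.80 and -0.71, and the others gave -0.0463 and 0.60. Median signals of the arrays ran from 337.7 to 381.2 for Stat3Δ/Δ pools and from 282.8 to 360.5 for control pools, with control pool 1 the lowest. The log2 ratio of 3' to 5' control probe sets, a sign of RNA integrity, ran from 0.341 to 0.422 in Stat3Δ/Δ pools and from 0.471 to 0.81 in control pools for Actb, and from -0.494 to -0.304 in Stat3Δ/Δ pools and from -0.245 to 0.274 in control pools for Gapdh. The exact permutation p (two-sided) was 0.1 for each gene, which is as low as 3 pools against 3 can give, and the part of RNA integrity in the values above was not tested.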

How the data were processed

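RNA of 6 pools was hybridized to MOE430 arrays, 1 array per pool. The deposited values are linear intensities; the authors computed them with the MAS5 method of Affymetrix, and every array was found to have a trimmed mean signal of 1500; the RMA values of the study were not used here. Of 45101 probe sets, 64 controls were left out. Signals plus a pseudocount of 69.9, their 20th percentile, were put on the log2 scale, quantile normalized between arrays and fitted by limma 3.58.1 (R 4.3.3), with empirical Bayes moderation and Benjamini-Hochberg adjustment over 45037 probe sets. The log2(signal + 69.9) scale understates the change of dim genes. Platform annotation named 1 gene for 34945 probe sets, several for 932 and none for 9160. Fits were tested on simulated data with 200 probe sets changed. The full thresholds recovered 1% of those changed by 1 on the log2 scale and 87% of those changed by 3, with 7 false calls. A change of 1 on the log2 scale would thus seldom be called with so few arrays. Python 3.11.15 made the tables (with numpy 2.4.6, pandas 2.3.3 and scipy 1.17.1) and the plots (matplotlib 3.10.9).

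Groups come from the sample titles. The members and lists were chosen with earlier results of these data known. Of each list, up to 4 genes were named: those with the 2 highest and 2 lowest log2 fold changes among genes above median brightness, or among all where under 4 were. Cxcr2, Csf3, Mefv, S100pbp, Chil3, Siglecf, Cma1 and, for the signals printed, the genes of widest separation were picked after their values were seen. The methods describe the pools as independent, p-values measure the spread between them, and precision is limited by how few arrays there are. Alternatives changed the pseudocount, normalization, filter, test, variance model, array weights, blocks, fold threshold, features and arrays, 1 at a time. Promoter windows were searched on both strands.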

Additional observations from a re-analysis of the deposited data

How the results depend on the processing

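None of the 7 genes was called under any alternative run, with adjusted p from 0.233 to 0.819 for S100a8 and from 0.248 to 0.832 for S100a9. Over all probe sets, 1 was called and 0 to 15 under the alternatives. The 4 genes past p and fold without the FDR became 2 with the methods' t-test, 2 at a fold of 2, 3 with no pseudocount and 3 with arrays centred on their medians, in both cases without Il1r2, and 0 with a fixed block for the title number, which leaves 3 arrays for the contrast, and 2 to 4 with 1 pool omitted (2 when Stat3Δ/Δ pool 3 or control pool 1 was omitted, since Il1r2 and Csf3r then missed); the cause was not tested. By the methods' t-test 2216 of all 45037 probe sets passed p and fold in either direction. The limma p of Il1r2 was 0.0566 with no pseudocount and 0.0534 with centred arrays. The median log2 fold change of the 7 genes, 0.90, ran from 0.63 to 1.04 with 1 pool left out and from 0.66 to 0.92 otherwise. The count of genes above every control array stayed at 4, and was 5 only without Stat3Δ/Δ pool 1 or without control pool 3. With a pool left out there are fewer values to separate, and the share of all probe sets was not counted there. Ltf passed p and fold in the lower direction without Stat3Δ/Δ pool 3, with array weights and with the fixed block. Camp, a dim probe set, turned from -0.0603 to 0.20 with no pseudocount, 0.10 with no normalization between arrays, 0.21 with array weights, 1.22 with the fixed block and 0.12 with a random block for the title number, and omitting single pools gave -0.62 to 0.64. Medians of surface receptors (0.552 to 0.848), oxidase subunits (0.374 to 0.738) and macrophage markers (0.298 to 0.637) stayed above 0 under every alternative run on them, and those of primary granule genes (-0.123 to 0.184), calgranulin receptors (-0.054 to 0.437) and other S100 genes (-0.28 to 0.329) lay on both sides of 0. With the replicate block 4 genes again passed p and fold. The deviations of same-numbered pools from their group means had correlations of -0.084, -0.009 and -0.235, and those of other pairs ran from -0.138 to 0.19. Deviations from a mean of 3 pools are tied to each other, so these values cannot show whether pools were paired. The sources used here name no pairing.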
